A study of Homo sapiens with 48 samples.

Results

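The proteasome genes measured here were all genes whose symbol starts with PSMA to PSMG and goes on with a number, with or without the ending IP. Of 49 such symbols in the name table, 43 were among the 14685 genes with counts, and 6 were not listed (PSMA8, PSMB8, PSMB9, PSMB10, PSMB11 and PSMD5). The members listed were 7 subunits of the 20S alpha ring, 7 of the 20S beta ring, 4 chaperones of 20S assembly, 6 ATPases and 11 non-ATPases of the 19S particle, 2 chaperones of 19S assembly, 5 activators and inhibitors, and PSMC3IP. PSMC3IP carries the name of the ATPase PSMC3 but is known as a factor of meiotic recombination and is no subunit. All 43 passed the filter on low counts, and the lowest count of a member in any library was 146.

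The proteasome is the protease that degrades proteins tagged with ubiquitin. Its 20S core is a barrel in which the beta subunits PSMB5, PSMB6 and PSMB7 carry the active sites and the alpha subunits form the gate, and the 19S particle binds ubiquitin, unfolds the substrate with its ATPases and feeds it into the core. Cells are known to raise the transcription of subunit genes through the transcription factor NFE2L1 when proteasome activity is short, and electrophiles such as 4-hydroxynonenal (HNE) are known to activate the related factor NFE2L2.

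RNA was sequenced from HEK293T cells, a human embryonic kidney line labelled as WT and epithelial-like, after T-REX. In T-REX, a photocaged precursor of HNE (Ht-PreHNE) is bound to Halo fused to a protein of interest, here the cap-binding protein NCBP1, and light releases HNE next to that protein. Cells were transiently transfected with pCS2+8-NCBP1-Halo, controls included, so each group is a mix of transfected and untransfected cells in a share not given here. The 3 controls were light alone (labelled control UV), probe alone (labelled control Pre, Ht-PreHNE without light) and DMSO (vehicle, no light). The study's methods define light alone as given with both Ht-PreHNE and light, which as written does not differ from T-REX, so what this arm received is uncertain. The 4 arms were sampled at 3, 6 and 12 h with 4 independent biological replicates each, giving 48 libraries. A change per gene in such bulk RNA cannot tell fewer expressing cells from less RNA per cell.

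Total counts per library were 23952455 to 37099535. As a check of the label epithelial-like, CDH1, KRT8 and KRT18 lay at 1.31 to 3.48, 4.39 to 10.4 and 7.14 to 13.4 CPM (counts scaled to a fixed library total), and EPCAM and KRT19 were not listed. VIM and CDH2, known as mesenchymal markers, lay higher, at 437 to 668 and 62.2 to 102 CPM, so the defining epithelial markers were low or absent from the tables. None of the 5 blood cell markers was listed, and COL1A1, the 1 of 5 endothelial and fibroblast markers that was, lay at 2.13 to 6.07 CPM. The count of NCBP1, which includes the transfected coding sequence, averaged 34640 CPM (DMSO, 12 h) to 82940 CPM (probe alone, 6 h). Some libraries stood apart for the members: replicate 3 of light alone at 6 h held the highest or the lowest value of its group for 36 of 43 members. Replicate 3 of DMSO at 12 h and replicate 4 of T-REX at 3 h did so for 32 each, the latter as the lowest for 29. Replicate 3 of T-REX at 3 h, replicate 4 of T-REX at 6 h and replicate 4 of probe alone at 12 h did so for 30 each. Every group has a highest and a lowest library for each member. The same count over all genes is not given here.

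RefSeq promoters (250 bases before to 50 after the start site, GRCh38.p14) were matched to 37 of the 43 members. Each was searched on both strands for TGACNNNGC (the core of the antioxidant response element, which NFE2L1 and NFE2L2 bind with small MAF proteins), CCAAT (the NF-Y box), CCGGAAG (an ETS core) and CACGTG (an E-box); these motifs do not contain one another. TGACNNNGC was in 35.1% of the members with a promoter and in 16.1% of all 27305 genes with one. CCGGAAG was in 40.5% against 12.2%, CCAAT in 51.4% against 39.7%, and CACGTG in 8.11% against 8.77%. Among the 16 members whose count was lower at 12 h than at 3 h in all 4 arms, TGACNNNGC was in 5 (31.2%). It was in 8 of the other 21 (38.1%). In the same order, CCAAT was in 10 (62.5%) and 9 (42.9%), and CCGGAAG in 8 (50%) and 7 (33.3%). CACGTG was in 2 (12.5%) and 1 (4.76%). These differences rest on few genes and were not tested. A match is only a run of letters in this window. The promoters of PSME3, PSMD11, PSMD12, PSMD1, PSMD6 and PSMG1 are shown because these are the 6 genes with the smallest p for a change over time, described below, with matches in capitals.
PSME3: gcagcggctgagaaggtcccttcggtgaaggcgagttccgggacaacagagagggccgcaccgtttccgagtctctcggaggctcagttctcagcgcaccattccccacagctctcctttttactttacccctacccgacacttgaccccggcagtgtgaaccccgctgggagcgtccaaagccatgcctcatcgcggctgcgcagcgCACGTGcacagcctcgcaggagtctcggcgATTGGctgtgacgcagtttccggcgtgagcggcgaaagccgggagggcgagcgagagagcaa
PSMD11: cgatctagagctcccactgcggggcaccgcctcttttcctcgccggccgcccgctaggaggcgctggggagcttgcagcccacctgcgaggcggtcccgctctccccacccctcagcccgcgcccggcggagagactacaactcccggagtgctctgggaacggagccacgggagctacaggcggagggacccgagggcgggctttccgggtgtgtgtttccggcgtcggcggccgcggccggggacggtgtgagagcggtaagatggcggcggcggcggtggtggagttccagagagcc
PSMD12: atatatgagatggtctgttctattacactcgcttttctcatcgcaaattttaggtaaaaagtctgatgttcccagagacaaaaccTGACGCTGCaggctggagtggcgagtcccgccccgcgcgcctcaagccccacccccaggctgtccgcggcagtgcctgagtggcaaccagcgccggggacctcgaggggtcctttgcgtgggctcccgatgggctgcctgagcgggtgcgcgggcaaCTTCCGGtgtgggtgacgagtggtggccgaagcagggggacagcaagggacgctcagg
PSMD1: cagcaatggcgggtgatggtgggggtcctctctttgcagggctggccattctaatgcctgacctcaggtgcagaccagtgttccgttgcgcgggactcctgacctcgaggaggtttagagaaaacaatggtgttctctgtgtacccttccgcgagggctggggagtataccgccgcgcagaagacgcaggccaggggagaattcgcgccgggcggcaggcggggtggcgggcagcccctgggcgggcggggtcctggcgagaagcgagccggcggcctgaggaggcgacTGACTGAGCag
PSMD6: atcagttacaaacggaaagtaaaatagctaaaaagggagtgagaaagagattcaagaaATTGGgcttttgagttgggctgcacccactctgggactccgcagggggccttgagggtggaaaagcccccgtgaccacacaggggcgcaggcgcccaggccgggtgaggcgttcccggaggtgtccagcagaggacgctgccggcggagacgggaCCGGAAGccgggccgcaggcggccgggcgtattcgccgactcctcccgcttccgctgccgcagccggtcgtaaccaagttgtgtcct
PSMG1: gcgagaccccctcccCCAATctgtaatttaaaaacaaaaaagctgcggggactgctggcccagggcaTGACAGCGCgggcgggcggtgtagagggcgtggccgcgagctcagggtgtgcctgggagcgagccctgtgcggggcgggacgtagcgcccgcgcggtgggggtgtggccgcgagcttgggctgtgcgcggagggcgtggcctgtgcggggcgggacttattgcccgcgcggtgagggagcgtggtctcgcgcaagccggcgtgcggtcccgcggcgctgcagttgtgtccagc
They lie at chr17:42833147-42833446 (plus strand), chr17:32444260-32444559 (plus strand), chr17:67366528-67366827 (minus strand), chr2:231056617-231056916 (plus strand), chr3:64023445-64023744 (minus strand) and chr21:39183402-39183701 (minus strand), each printed 5′ to 3′ on the gene's strand. The capitals mark CACGTG and CCAAT (reverse strand) in PSME3, TGACNNNGC and CCGGAAG (reverse strand) in PSMD12, TGACNNNGC in PSMD1, CCAAT (reverse strand) and CCGGAAG in PSMD6, and CCAAT and TGACNNNGC in PSMG1. The window of PSMD11 holds none of these motifs. The TGACNNNGC match in PSMD1 lies 40 bases after the start site, and those in PSMD12 and PSMG1 lie 165 and 183 bases before it.

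Levels are first described per length, as mean CPM over the 48 libraries per kilobase of merged exons (GENCODE 29, which may not be the annotation used for counting). The beta ring was the most even group, from 22.5 (PSMB5, the chymotrypsin-like subunit) to 55.2 CPM per kb (PSMB1), a 2.45-fold span. The alpha ring, which the core holds in equal number with the beta ring, spanned 37.9-fold, from 1.21 (PSMA6) to 45.8 CPM per kb (PSMA7). The low alpha subunits were PSMA6, PSMA1 (2.57 CPM per kb) and PSMA2 (3.87 CPM per kb), and the 19S chaperone PSMD9 was as low at 1.21 CPM per kb. These are the 4 members that overlap another protein-coding gene on the same strand in GENCODE 29, with 5 such genes between them, of which only WDR66, which overlaps PSMD9, is in the count tables. How reads that fit more than 1 gene were counted is not given in the sources used here, so their levels are uncertain and the part of the overlap was not tested.

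**Figure D1:**
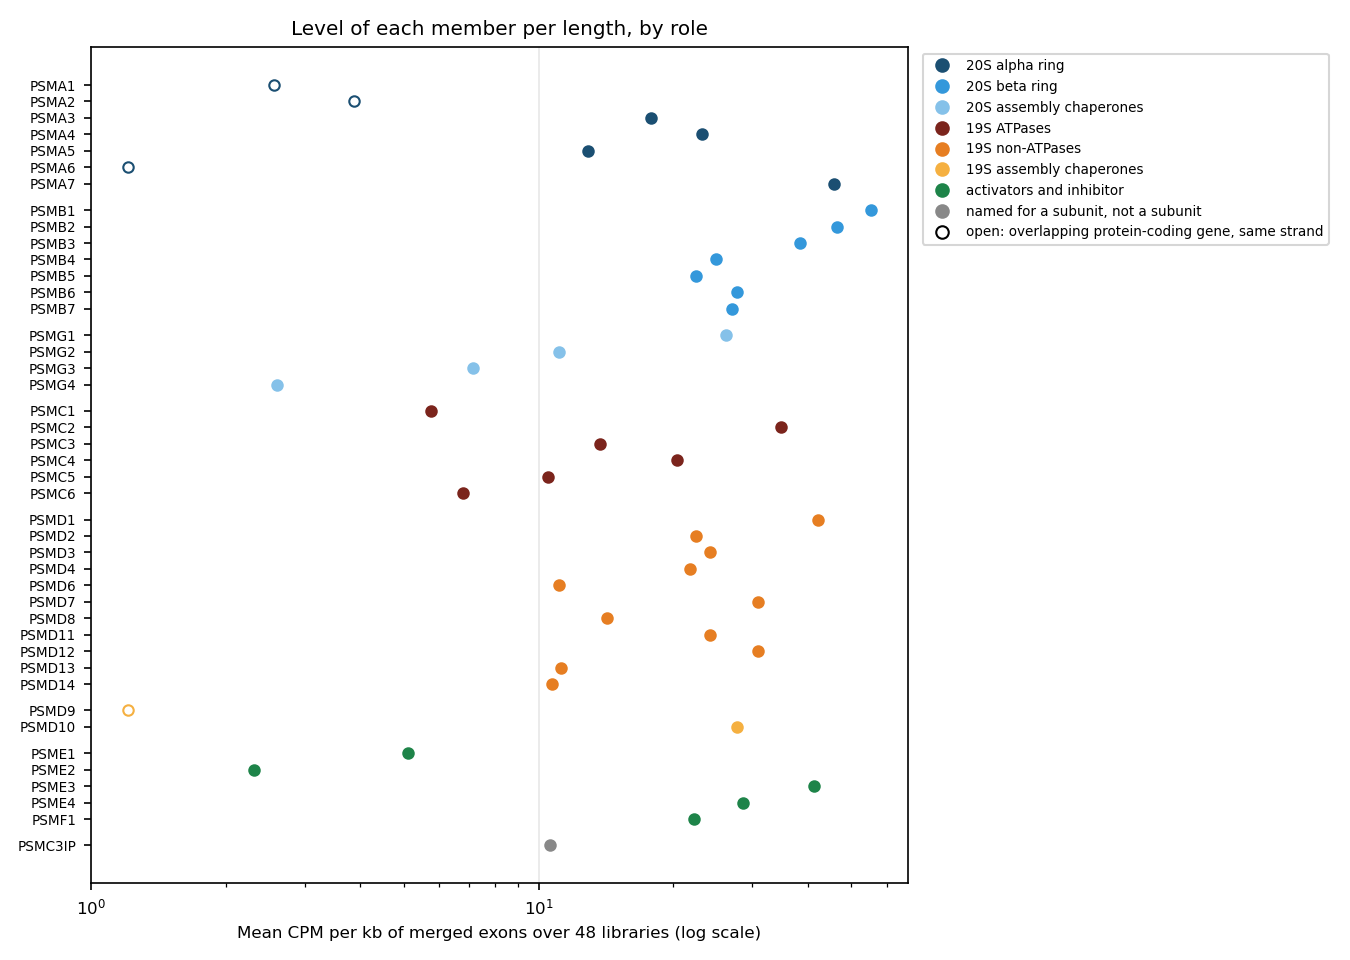
Mean CPM per kb of merged exons over 48 libraries (log axis) for each of the 43 members, coloured by role, with open points for members that overlap a protein-coding gene on the same strand. The 7 beta subunits sit between 22.5 and 55.2, while the alpha subunits PSMA1, PSMA2 and PSMA6 sit at 3.87 or less.

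The ATPases of the 19S base spanned 6.08-fold, from PSMC1 at 5.74 to PSMC2 at 34.9 CPM per kb. PSMC1 has 13 named pseudogenes, and 10 members have at least 1, so that reads shared with them may be missing or misplaced. The 11 non-ATPases, which hold the lid, the ubiquitin receptors and the deubiquitinase PSMD14, spanned 3.94-fold, from PSMD14 at 10.7 to PSMD1 at 42.2 CPM per kb. Among activators, PSME3 (the nuclear PA28 gamma) stood at 41.3 and PSME4 (PA200) at 28.6 CPM per kb, above PSME1 (5.11) and PSME2 (2.31), the interferon-responsive PA28 alpha and beta. The inhibitor PSMF1 lay at 22.2 CPM per kb. Of the 20S chaperones, which guide alpha ring assembly, PSMG1 was highest and PSMG4 lowest, at 26.2 and 2.61 CPM per kb, and PSMC3IP lay at 10.6 CPM per kb.

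Over the 12 groups of arm and time point, the highest and lowest group means of a member lay 1.13-fold (PSMB3) to 1.87-fold (PSMD9) apart. The spread of all genes is not given here. The most even were PSMD2, a base subunit that docks shuttle proteins (SD of group means 0.062 on the log2 CPM scale), PSME4 (0.071) and the beta subunit PSMB3 (0.071). PSMD2 averaged 132 ± 7.05 CPM (SD, n = 4) in its highest group, probe alone at 3 h, and 115 ± 1.1 CPM in its lowest, T-REX at 12 h. The most variable were PSMD9 (SD 0.361), the lid subunit PSMD12 (0.235) and PSME3 (0.228). All 3 were highest at 3 h and lowest at 12 h. The highest group mean of PSMD9 was 1.87-fold its lowest, against 1.14-fold for PSMD2.

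The study compares T-REX with each control to ask what HNEylation of NCBP1 does to the transcripts. T-REX and DMSO differ in both probe and light, so that comparison alone does not isolate HNEylation of NCBP1. At 3 h, no member was called against any control by edgeR's quasi-likelihood test at a Benjamini-Hochberg adjusted p of at most 0.05. Among all genes, 5.99% were called in the DMSO comparison, 1.05% in that with probe alone and 0.197% in that with light alone. At an unadjusted p under 0.05, 5, 4 and 5 of the 43 members passed against light alone, the probe and DMSO, beside 14.8%, 18.0% and 21.9% of all genes, DESeq2 called 1 in each, and limma called 0 in each. The median log2 change of the members was 0.061, -0.053 and -0.009, beside 0.001, 0.024 and 0.031 over all genes.

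The smallest adjusted p at 3 h was that of PSMD11, a subunit of the 19S lid. PSMD11 read 176, 199, 188 and 172 CPM with T-REX and 205, 214, 201 and 206 CPM with DMSO. Its log2 change was -0.16 ± 0.053 (SE; edgeR adjusted p = 0.0643). All T-REX libraries were below all DMSO libraries, but the probe alone libraries, at 185 to 209 CPM, overlapped both. The beta subunit PSMB4 read 53.3, 63.3, 76.9 and 47.6 CPM with T-REX and 48.7, 45.3, 43.5 and 50.9 CPM with light alone, a log2 difference of 0.36 ± 0.11 (edgeR adjusted p = 0.152). Its T-REX libraries spread over a wider range than any other arm, and the lowest of them lay within the light alone range. PSMG2, a partner of PSMG1, averaged 35.6 ± 1.55 CPM with T-REX and 40.8 ± 3.06 CPM with light alone (edgeR adjusted p = 0.173).
The other members with the smallest p values at 3 h did not pass either. PSME3 differed by -0.12 ± 0.041 from probe alone (edgeR adjusted p = 0.116), PSMD3, a lid subunit, by -0.18 ± 0.064 from DMSO (edgeR adjusted p = 0.104), and PSMD8, another lid subunit, by 0.25 ± 0.089 from light alone (edgeR adjusted p = 0.195), all as log2 differences.

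At 6 h, edgeR called 0 members in T-REX against light alone, the probe or DMSO, beside 0.218%, 0.109% and 0.415% of all genes. At an unadjusted p under 0.05, 7, 2 and 1 members passed, beside 11.7%, 6.56% and 12.4% of all genes, and DESeq2 and limma called 0 in each. The activator subunit PSME1 read 8.40, 8.31, 7.96 and 8.11 CPM with T-REX and 10.5, 11.5, 10.8 and 8.74 CPM with light alone, a log2 difference of -0.34 ± 0.11 (edgeR adjusted p = 0.239). Its 4 T-REX libraries were below all 4 light alone libraries and overlapped the DMSO libraries, which ran from 8.10 to 9.97 CPM. PSMA7, an alpha subunit, lay below each control in mean, at 78.3 ± 5.76 CPM in T-REX against 87.8 ± 8.33 CPM (light alone), 86.7 ± 3.98 CPM (probe alone) and 86.8 ± 4.93 CPM (DMSO). The ranges of PSMA7 overlapped in each case. The remaining named members at 6 h were each lower in mean with T-REX than with light alone, with log2 differences of -0.17 ± 0.071 for PSMC3IP, -0.11 ± 0.048 for PSMD11, -0.19 ± 0.084 for PSMG2 and -0.17 ± 0.080 for PSMD10 (edgeR adjusted p = 0.363, 0.364, 0.371 and 0.41). For PSMD10, light alone replicate 3 alone stood at 94.5 CPM, with the other light alone libraries at 69.6 to 71.2 CPM, and without it the difference was -0.05 ± 0.059.

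At 12 h, 9 of 43 members (20.9%) were lower with T-REX than with DMSO and 0 were higher by edgeR. Among all genes, 10.9% were called in this comparison and 6.79% were called lower. The 9 came from several parts of the complex: the alpha subunits PSMA7 and PSMA4, the beta subunit PSMB2, the lid subunits PSMD11 and PSMD12, the chaperones PSMG1 and PSMD10, and the activators PSME3 and PSME1. None of the 6 ATPases was called, with log2 changes of -0.12 to 0.05. The median log2 change was -0.081 over the members and 0.003 over all genes, and 32 of 43 members were below 0, beside 49.3% of genes. Against light alone and probe alone, edgeR called 0 members, beside 1.29% and 0.701% of all genes, with 4 and 5 members at an unadjusted p under 0.05 (12.9% and 11.1% of all genes). DESeq2 called 0 and 1 there and limma called 0 in both. With the RUV factors (deposited scores of unwanted variation) as covariates edgeR called 3 and 7. With only the 2 arms compared in the fit it called 2 and 3. The shares of all genes called under these settings are not given here.

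**Figure D2:**
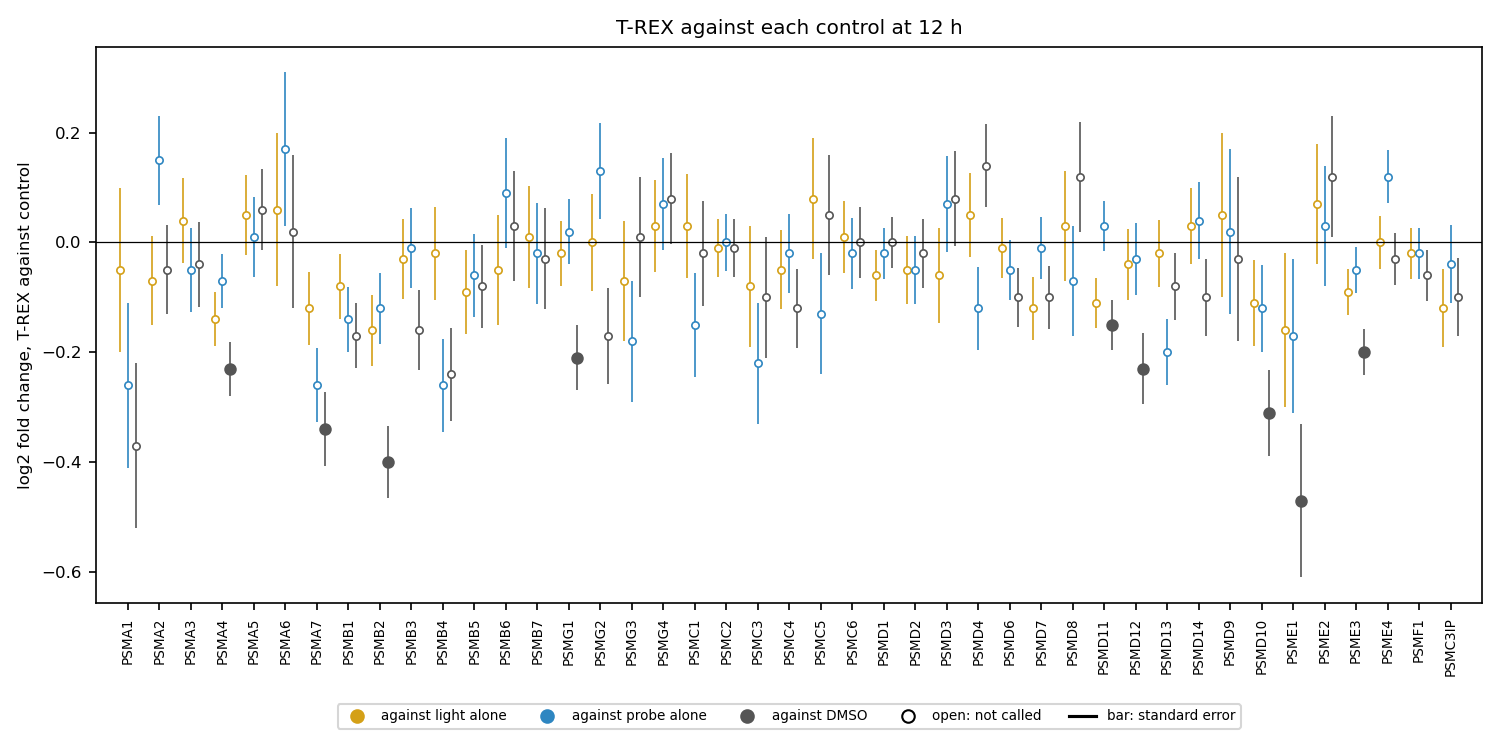
Log2 fold change of T-REX against light alone, probe alone and DMSO at 12 h for the 43 members (points; bars are standard errors from edgeR; filled points passed the test). The 9 filled points all belong to the comparison with DMSO and lie between -0.47 and -0.15.

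PSMB2, a non-catalytic beta subunit, had the smallest p. It read 160, 183, 178 and 173 CPM in T-REX, 194, 193, 198 and 194 in light alone, 196, 196, 194 and 167 in probe alone, and 238, 214, 254 and 204 CPM in DMSO libraries. Every T-REX library was below every DMSO and light alone library, and probe alone replicate 4 lay within the T-REX range. PSMB2 fell by 0.40 on the log2 scale against DMSO (SE 0.065, edgeR adjusted p = 0.00041), while it differed by -0.16 ± 0.065 from light alone (edgeR adjusted p = 0.254) and by -0.12 ± 0.065 from probe alone (edgeR adjusted p = 0.49).

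The alpha subunit PSMA7 read 72.9, 70.7, 61.8 and 69.1 CPM in T-REX, 77.2, 72.4, 69.1 and 81.1 in light alone, 80.1, 83.9, 85.9 and 77.4 in probe alone, and 89.4, 84.7, 95.3 and 77.7 CPM in DMSO libraries. Its T-REX libraries were below all probe alone and DMSO libraries and overlapped light alone. PSMA7 fell by 0.34 on the log2 scale against DMSO (SE 0.067, edgeR adjusted p = 0.0021). The difference from probe alone was -0.26 ± 0.067 (edgeR adjusted p = 0.0752). PSMA4, another alpha subunit, read 137, 138, 131 and 138 CPM in T-REX, 147, 146, 149 and 156 in light alone, 152, 142, 144 and 130 in probe alone, and 162, 165, 157 and 153 CPM in DMSO libraries. T-REX lay below DMSO and light alone without overlap, and probe alone overlapped T-REX and light alone and lay below DMSO. It fell by 0.23 against DMSO (SE 0.049, edgeR adjusted p = 0.00372).

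Of the activators, PSME3 read 164, 165, 163 and 160 CPM in T-REX, 176, 168, 176 and 177 in light alone, 170, 166, 173 and 164 in probe alone, and 194, 183, 186 and 185 CPM in DMSO libraries. The DMSO libraries were above those of the 3 other arms. PSME3 fell by 0.20 on the log2 scale against DMSO (SE 0.042, edgeR adjusted p = 0.00373). PSME1 read 8.47, 5.98, 9.12 and 8.20 CPM with T-REX and 14.7, 10, 9.11 and 10.3 CPM with DMSO, with a fall of 0.47 (SE 0.14, edgeR adjusted p = 0.0332). It was the largest and least precise of the 9 changes, and the highest T-REX and lowest DMSO libraries overlapped. The call of PSME1 was lost without DMSO replicate 1, and also without T-REX replicate 1, 2 or 4.

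In the lid, PSMD11 read 140, 143, 138 and 141 CPM in T-REX, 148, 148, 157 and 155 in light alone, 137, 144, 129 and 141 in probe alone, and 154, 156, 157 and 158 CPM in DMSO libraries. T-REX did not overlap DMSO or light alone and lay inside the probe alone range. It fell by 0.15 against DMSO (SE 0.045, edgeR adjusted p = 0.029). PSMD12 read 129, 135, 126 and 123 CPM with T-REX and 156, 140, 176 and 131 CPM with DMSO, and fell by 0.23 (SE 0.065, edgeR adjusted p = 0.0242). Here the groups overlapped, as DMSO replicate 4 was below the highest T-REX library, and DMSO replicate 3 was the highest of all. Without that library the change was -0.14 ± 0.050 (edgeR adjusted p = 0.0697), and the call was lost. It was also lost without T-REX replicate 1, 3 or 4, and that of PSMD11 without T-REX replicate 1, 3 or 4 or DMSO replicate 2.

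Both chaperones that passed were lower with T-REX in every library. PSMG1 read 52.7, 61.8, 53.4 and 56.3 CPM in T-REX, 53.9, 55.4, 59.7 and 58.3 in light alone, 55.0, 55.7, 57.1 and 53.2 in probe alone, and 66.5, 67.1, 63.0 and 63.2 CPM in DMSO libraries. The light alone and probe alone libraries all lay within the T-REX range, and DMSO was above all of them. PSMG1 fell by 0.21 against DMSO (SE 0.059, edgeR adjusted p = 0.0201). PSMD10, a chaperone of the 19S base also known as gankyrin, read 55.9, 65.4, 62.3 and 62.3 CPM with T-REX and 74.0, 71.1, 91.9 and 67.7 CPM with DMSO, and fell by 0.31 (SE 0.078, edgeR adjusted p = 0.0131). DMSO replicate 3 was its highest library, and without it the change was -0.20 ± 0.061 (edgeR adjusted p = 0.033). The call of PSMD10 was lost without T-REX replicate 1, and that of PSMG1 without T-REX replicate 1 or 3 or DMSO replicate 2.

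**Figure D3:**
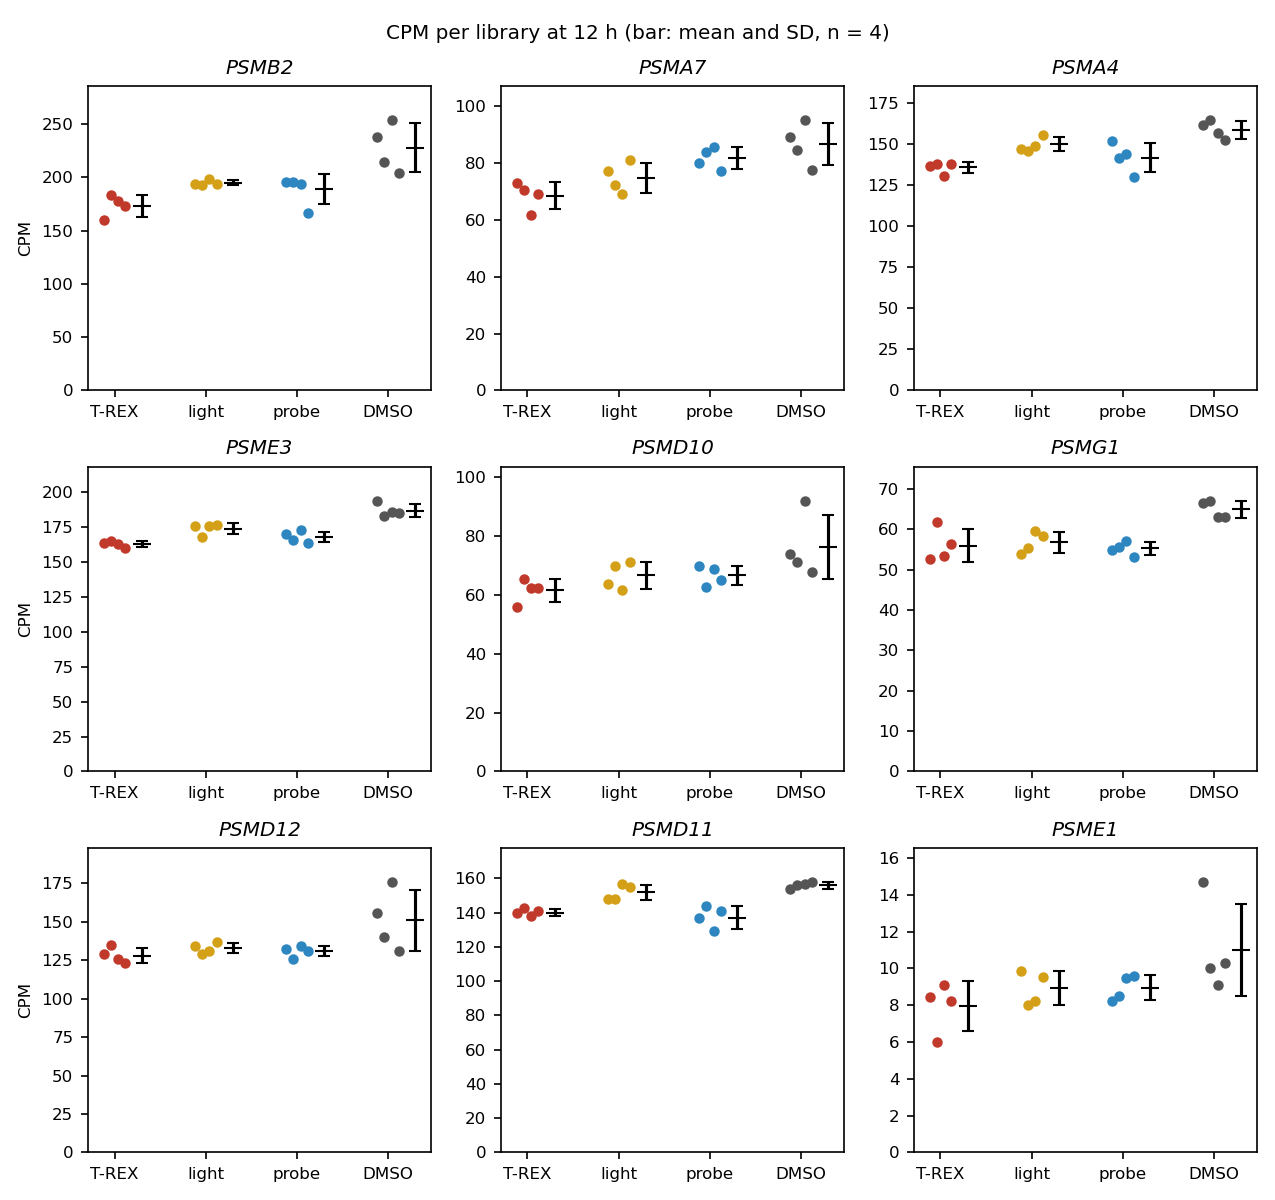
CPM of the 9 members called lower with T-REX than with DMSO at 12 h, in each of the 16 libraries (points), with the mean and SD of 4 per arm (bars). The T-REX libraries lie below all DMSO libraries except for PSMD12 and PSME1, whose ranges overlap, and for PSMG1 all light alone and probe alone libraries lie within the T-REX range.

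The count of 9 depended on the libraries. Without T-REX replicate 1 it was 4, and without DMSO replicate 4 it was 12. Without DMSO replicate 3, which stood apart, it was 10, and PSMD12 was not among them. PSMB2, PSMA7, PSMA4 and PSME3 passed whichever 1 library was left out. With only the T-REX and DMSO libraries in the fit, however, the count was 3, and PSME3 did not pass. The shares of all genes called in these fits are not given here. The counts therefore do not show whether members moved more than other genes. NCBP1 also moved with the arms at 12 h. It averaged 57500 ± 5339 CPM with T-REX and 59150 ± 10050 CPM with probe alone, against 40520 ± 6848 CPM with light alone and 34640 ± 4554 CPM with DMSO. The part of NCBP1 in the members' differences was not tested.

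Among the controls themselves, edgeR as fitted here called members in probe alone against DMSO at 12 h alone, 6 of 43 members (14.0%) beside 5.11% of all genes. PSMB2 (log2 change -0.27 ± 0.064), PSMD11 (-0.18 ± 0.045), PSMG1 (-0.23 ± 0.059), PSME3 (-0.15 ± 0.042) and PSMG2 (-0.30 ± 0.088) were lower, and the ubiquitin receptor PSMD4 was higher (0.26 ± 0.076). Their edgeR adjusted p values were 0.0175, 0.0214, 0.0237, 0.0403, 0.0476 and 0.0456. PSMB2, PSMD11, PSMG1 and PSME3 also passed for T-REX against the same DMSO libraries, so that the 2 comparisons share their controls. PSMG2 read 30.8, 34.2, 30.1 and 34.2 CPM with probe alone and 35.4, 39.7, 49.4 and 34.7 CPM with DMSO, without overlap, and DMSO replicate 3 was the highest. PSMD4 read 73.4, 72.1, 77.2 and 68.2 CPM with probe alone and 70.0, 61.5, 47.7 and 63.9 CPM with DMSO. The ranges of PSMD4 overlapped, and DMSO replicate 3 was the lowest library. Without it neither passed, with log2 changes of -0.17 ± 0.070 for PSMG2 and 0.17 ± 0.057 for PSMD4 (edgeR adjusted p = 0.19 and 0.112). The count was 5 without that replicate, 1 without probe alone replicate 4, 2 without another probe alone library or DMSO replicate 2, 3 without any T-REX or light alone library, 6 without DMSO replicate 1 and 11 without DMSO replicate 4. It was 0 with only those 2 arms in the fit. How many of all genes these fits called is not given here.

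In the 8 other comparisons between controls, edgeR called 0 members. Among all genes, 0.00681% were called for light alone against DMSO at 3 h, 0.00681% for probe alone against DMSO at 3 h and 0.232% for light alone against probe alone at 3 h. The share was 0.00681%, 0.0272% and 0.0613% for the same comparisons at 6 h. At 12 h it was 0.0136% for light alone against DMSO and 0.415% for light alone against probe alone. The members at an unadjusted p under 0.05 numbered 1, 4 and 15 at 3 h, 3, 1 and 2 at 6 h, and 9 and 6 at 12 h, in this order. Of all genes, 7.78%, 5.11% and 14.0% were under it at 3 h, 14.4%, 8.21% and 8.42% at 6 h, and 10.4% and 12.6% at 12 h. DESeq2 called 1 member for light alone against probe alone at 3 h and 0 in the rest, and limma called 0 in all of them. With the RUV factors as covariates edgeR called 13 members for light alone against probe alone at 3 h, and 1 to 7 in 5 others of these 8. How many of all genes that fit called is not given here.

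Within each arm, a part of the members was lower at 12 h than at 3 h. By edgeR, 27 of 43 were lower in the T-REX arm, 28 in the probe alone arm, 21 in the light alone arm and 23 in the DMSO arm. In the order T-REX, probe, light and vehicle, 20.6%, 21%, 19% and 18.4% of all genes were called lower, against 62.8%, 65.1%, 48.8% and 53.5% of the members. Of all 14685 genes, 3103, 3133, 2994 and 2997 were called higher, in the same order. A single member was higher, PSMD10 in DMSO (log2 change 0.21 ± 0.081, edgeR adjusted p = 0.0357). Without DMSO replicate 3 at 12 h it was 0.11 ± 0.079 (edgeR adjusted p = 0.311). The median log2 change of the members was -0.274, -0.301, -0.174 and -0.161, beside -0.013, 0.01, -0.008 and 0.009 over all genes, in this order. Summed over the members, counts went from 3658 ± 209.5 to 3001 ± 39.89 CPM in the T-REX arm, from 3610 ± 109.3 to 3111 ± 26.53 CPM in light alone, from 3851 ± 115.5 to 3068 ± 93.19 CPM in probe alone, and from 3755 ± 75.13 to 3238 ± 102.2 CPM with DMSO (SD, n = 4). Time, harvest and count table cannot be told apart, since each time point is a table of its own, and NCBP1 also averaged less at 12 h than at 3 h in each arm. The part of NCBP1 was not tested.

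**Figure D4:**
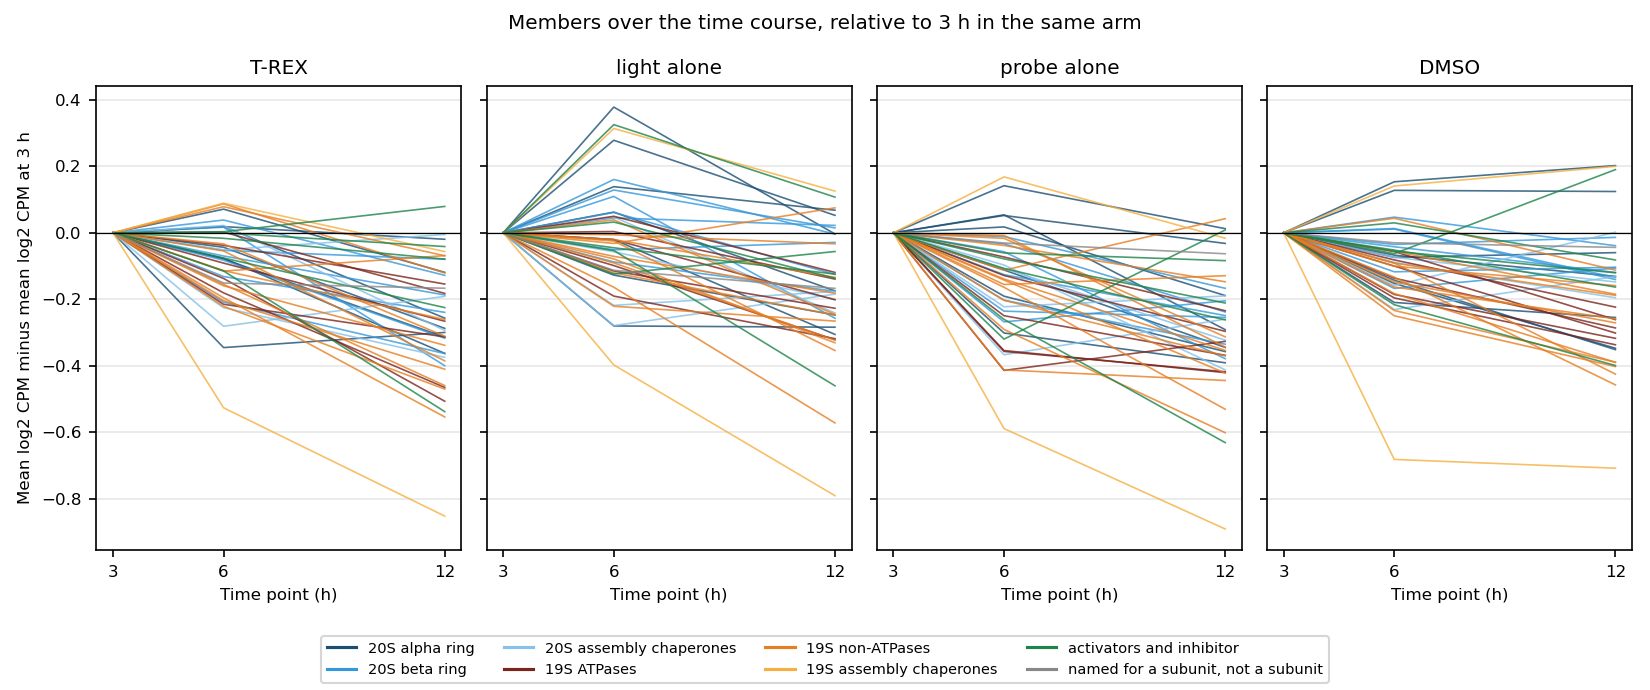
Mean log2 CPM of each of the 43 members at 3, 6 and 12 h minus its mean at 3 h in the same arm, 1 line per member, coloured by role, in 4 panels by arm. Most lines end below 0 at 12 h in each panel, and the lowest line in each is PSMD9.

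At 6 h fewer members were lower than at 12 h in each arm. Lower members numbered 6 in T-REX (14.0% of members, beside 9.8% of all genes) and 13 in probe alone (30.2%, beside 10.5%). They numbered 3 in light alone (6.98%, beside 11%) and 6 in DMSO (14.0%, beside 6.97%). With light alone, PSMD10, PSMA7, PSMA1 and PSME1 were higher at 6 h (log2 changes 0.32 ± 0.081, 0.28 ± 0.073, 0.39 ± 0.13 and 0.33 ± 0.12). Their edgeR adjusted p values were 0.00224, 0.00319, 0.0266 and 0.0455. Of all 14685 genes, 2101 were called higher in this comparison. For the alpha subunit PSMA1, light alone read 9.75, 8.52, 12.2 and 8.71 CPM at 6 h and 7.26, 7.5, 7.38 and 7.70 CPM at 3 h. All 6 h libraries were above all 3 h libraries, and replicate 3, which stood apart for most members, was the highest. Without that library, 3 members in place of 7 were called in either direction in light alone. The share of all genes called without it is not given here. PSMA7 was still higher (0.24 ± 0.077, edgeR adjusted p = 0.0249), and PSMD10, PSMA1 and PSME1 did not pass (edgeR adjusted p = 0.055, 0.19 and 0.108). PSMD9 and PSMD12 were the members lower at 6 h in all 4 arms, with log2 changes of -0.67 to -0.40 and -0.29 to -0.16. The share of all genes lower at 6 h in all 4 arms was not counted.

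Across the 4 arms, 16 members were lower at 12 h in all, 7 in 3 arms, 5 in 2, 4 in 1 and 11 in none. How many of all genes were lower in all 4 arms was not counted. By role, all 6 ATPases were lower with T-REX, probe alone and DMSO and 3 of them with light alone. Of the 11 non-ATPases, 8 were lower with T-REX and with probe alone, 7 with light alone and 9 with DMSO. In the alpha ring the same 3 subunits, PSMA3, PSMA4 and PSMA5, were lower in each arm, while PSMA1, PSMA2, PSMA6 and PSMA7 passed in none. In the beta ring, 4 of 7 were lower with T-REX, 5 with probe alone, 1 with light alone and 0 with DMSO. The difference between arms was tested only as the T-REX effect described below. The 11 that passed in no arm were PSMA1, PSMA2, PSMA6, PSMA7, PSMB3, PSMG4, PSMD2, PSMD4, PSMD10, PSME1 and PSME2. PSMC3IP, which is no subunit, was lower with T-REX and light alone.

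The smallest p values over time belonged to PSME3, PSMD11, PSMD12, PSMD1, PSMD6 and PSMG1. PSME3, whose promoter is shown above, read 238, 236, 248 and 225 CPM at 3 h and 164, 165, 163 and 160 CPM at 12 h with T-REX, and 242, 247, 248 and 249 CPM at 3 h and 194, 183, 186 and 185 CPM at 12 h with DMSO. No 12 h library reached any 3 h library in any arm, and the 6 h means of 212 to 231 CPM lay between. The log2 changes of PSME3 were -0.54, -0.46, -0.63 and -0.40 (T-REX, light, probe and vehicle), SE 0.037 each, with edgeR adjusted p of 3.57e-16, 6.24e-14, 3.76e-18 and 4e-12.

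PSMD1, a scaffold subunit of the 19S base, read 251, 259, 261 and 232 CPM at 3 h and 177, 189, 180 and 183 CPM at 12 h with T-REX, and 245, 256, 231 and 245 CPM at 3 h and 187, 191, 171 and 179 CPM at 12 h with DMSO. The T-REX and DMSO means were the same at 12 h (182 CPM each), and no 12 h library of any arm reached its 3 h range. Its log2 changes were -0.46 (T-REX), -0.33 (light alone) and -0.42 (both probe alone and DMSO), each with an SE of 0.048. PSMD12 averaged 189, 197, 199 and 196 CPM at 3 h (T-REX, light, probe and vehicle), and 128, 133, 131 and 151 CPM at 12 h. The 12 h DMSO libraries were spread widest, from 131 to 176 CPM. PSMD12 changed by -0.55, -0.57, -0.60 and -0.38 on the log2 scale (SE 0.060 each), and PSMD11 by -0.39, -0.35, -0.54 and -0.40 (SE 0.047 each).

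PSMD6, a lid subunit, went from 116, 109, 116 and 112 CPM at 3 h to 87.0, 87.6, 89.6 and 93.2 CPM at 12 h in the same order of arms, with log2 changes of -0.41, -0.32, -0.37 and -0.26 (SE 0.051 each). The chaperone PSMG1 averaged 68.4 to 69.7 CPM at 6 h and 67.1 to 73.5 CPM at 3 h, and it passed in no arm at 6 h (edgeR adjusted p = 0.833, 0.554, 0.221 and 0.385 in the same order) and in each at 12 h. In DMSO the PSMG1 change was the smallest of the 4, at -0.15 ± 0.054 (edgeR adjusted p = 0.0267). PSMD9 had the largest change of any member. It read 13.9, 16.3, 13.4 and 14.1 CPM at 3 h and 6.20, 6.93, 9.30 and 10.1 CPM at 12 h with T-REX, and 12.7, 15.5, 11.9 and 14.1 CPM at 3 h and 7.66, 7.04, 9.86 and 8.73 CPM at 12 h with DMSO. Its 12 h libraries were below its 3 h libraries in each arm, with log2 changes of -0.89 to -0.70 (SE 0.12 each). It is also 1 of the 4 members that overlap another protein-coding gene on the same strand.

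**Figure D5:**
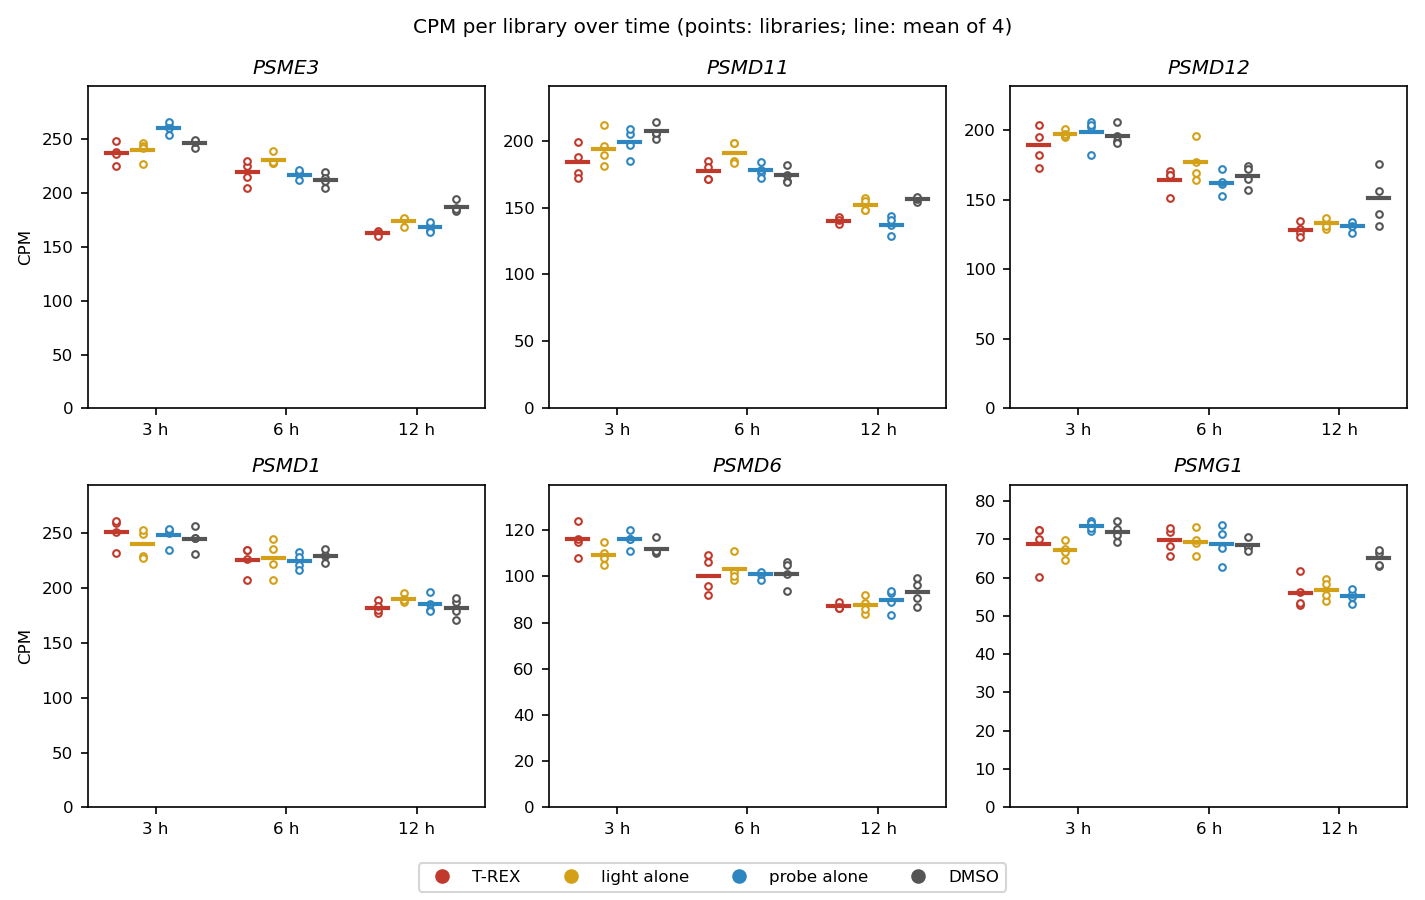
CPM of PSME3, PSMD11, PSMD12, PSMD1, PSMD6 and PSMG1 in each library at 3, 6 and 12 h (points) with the mean of 4 (lines), by arm. All 12 h means lie below the 3 h means of the same arm, and the DMSO mean at 12 h is above the T-REX mean for each of them but PSMD1.

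Whether the T-REX effect (T-REX minus the mean of the 3 controls) itself changed between time points was tested in the fit over all 48 libraries. For 6 h against 3 h edgeR called 0 members and 0% of all genes, with a smallest adjusted p of 0.674 for PSMA1. At an unadjusted p under 0.05 were 0 members, beside 7.47% of all genes. For 12 h against 3 h it called 0 members and 0.116% of all genes. Of all genes, 11% were at an unadjusted p under 0.05 in this test, beside 6 of 43 members. These were PSMB4 (-0.31 ± 0.12 as a log2 difference of differences, edgeR adjusted p = 0.289), PSMA1 (-0.39 ± 0.16), PSMD13 (-0.18 ± 0.077), PSMB1 (-0.15 ± 0.068) and PSMB2 (-0.16 ± 0.070) on the lower side and PSME4 (0.11 ± 0.049) on the higher. Leaving out any 1 library gave 0 calls in both tests, and DESeq2 and limma were not run on them.

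Other genes of the pathway were taken from 4 lists with 34 measured genes. They hold other subunits and assembly factors, proteasome-bound enzymes and shuttles, genes that control proteasome genes, and ubiquitin with its activating enzymes. At 12 h, T-REX against DMSO gave 2 higher and 1 lower of 34, with a median log2 change of -0.04. Of all 14685 genes, 601 were called higher and 997 lower. NFE2L1 rose by 0.23 ± 0.062 on the log2 scale (edgeR adjusted p = 0.0166), and its partner MAFG rose by 0.34 ± 0.086 (edgeR adjusted p = 0.0138), while the shuttle RAD23B fell by 0.20 (SE 0.049, edgeR adjusted p = 0.0119). NFE2L1 was also higher with probe alone than with DMSO, by 0.26 ± 0.062 (edgeR adjusted p = 0.0181), and differed by -0.02 ± 0.061 between T-REX and probe alone. Against light alone and probe alone at 12 h edgeR called 0 of the 34, beside 1.29% and 0.701% of all genes. At an unadjusted p under 0.05 were 4 and 3 of the 34, beside 12.9% and 11.1% of all genes. DESeq2 and limma were not counted over these 34.
The beta ring chaperone POMP, the lid subunit SEM1 and the ubiquitin receptor ADRM1 differed between T-REX and DMSO at 12 h by -0.02 ± 0.091, -0.05 ± 0.070 and -0.11 ± 0.23, and none passed. POMP lay below probe alone in the light alone arm (-0.41 ± 0.091, edgeR adjusted p = 0.0421). At 3 h, 3 of the 34 were higher and 1 lower with T-REX than with DMSO. Of all 14685 genes, 213 were called higher and 667 lower there. T-REX was above DMSO for SEM1 (0.22 ± 0.057, edgeR adjusted p = 0.0247) and PITHD1 (0.22 ± 0.067, edgeR adjusted p = 0.0496). The shuttle UBQLN2 was lower against DMSO (-0.31 ± 0.053, edgeR adjusted p = 0.00196) and against probe alone (-0.23 ± 0.053, edgeR adjusted p = 0.0433).
Over time, 16, 16, 13 and 12 of the 34 were lower at 12 h than at 3 h (T-REX, light, probe and vehicle), and 2, 2, 0 and 1 were higher. Of all genes, 20.6%, 19%, 21% and 18.4% were lower in these comparisons, and 3103, 2994, 3133 and 2997 of 14685 were higher. POMP was lower in each arm, by -0.51 ± 0.094, -0.42 ± 0.095, -0.25 ± 0.094 and -0.37 ± 0.094 on the log2 scale. NFE2L1 was lower in DMSO (-0.22 ± 0.076, edgeR adjusted p = 0.0211) and did not pass in the others, and SEM1 was lower with T-REX (-0.27 ± 0.060, edgeR adjusted p = 0.000249).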

How the data were processed

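Members, gene lists, motifs and tests were chosen with earlier results of these data known. RNA was depleted of ribosomal RNA, made into stranded libraries and sequenced as paired ends on a NovaSeq instrument, per the study's methods (the labels name stranded mRNA reagents and no depletion). The authors deposited raw counts per Ensembl gene for each library, log2 CPM made from them, and a score per library for each of 2 RUV factors of unwanted variation, whose method is not given. A table adjusted for these factors was not used. The study's reporting summary names cutadapt, TopHat and Cufflinks for the time-resolved RNA-seq. The counting program, genome build and annotation are not given in the sources used here. The deposited genes have a count of at least 2 in each library, and no further gene was removed by the filter on low counts (filterByExpr).

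Symbols came from a name table, which named 13443 of 14685 IDs. Counts were tested with edgeR 4.0.16 in R 4.3.3 (TMM, robust quasi-likelihood fit). Each time point was fitted with all 16 libraries, and comparisons over time and the T-REX effect with all 48. P-values were adjusted by Benjamini-Hochberg over all genes of a comparison, and calls needed an adjusted p of at most 0.05. Printed CPM used TMM factors of the 48 libraries. The fits were checked on simulated data. Alternatives were RLE scaling, no filter, a replicate block, RUV factors as covariates, only the 2 arms compared, limma 3.58.1 on the log2 CPM, DESeq2 1.42.0 and leaving out each library. Members named with values were those called, or with the 6 smallest p, in T-REX comparisons at each time, the highest and lowest of each role, the 3 most and 3 least variable, and the 6 with the smallest p over time. Also named were POMP, ADRM1, SEM1, NFE2L1 and other pathway genes called against a control. 1 of these pathway genes is not reported here.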

Additional observations from a re-analysis of the deposited data

Results flagged for a closer look

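In 11 of 144 groups of 4 libraries, the library at one end lay further from the rest than Dixon's 95% limit allows. Chance alone marks about 5% of groups, 1 in 20. In light alone at 6 h, replicate 3 was marked for PSMD10 at 94.5 CPM (others 69.6 to 71.2) and for PSME3 at 239 CPM (others 228 to 229). In probe alone at 3 h, replicate 4 was marked for PSMD1 at 234 CPM (others 250 to 254) and for PSMD12 at 182 CPM (others 202 to 206). PSMB2 stood at 167 CPM in probe alone at 12 h, replicate 4 (others 194 to 196), and PSMD12 at 151 CPM in T-REX at 6 h, replicate 4 (others 168 to 171). PSMD10 stood at 76.2 CPM in T-REX at 3 h, replicate 3 (others 58.6 to 61.2), and at 69.2 CPM in DMSO at 3 h, replicate 2 (others 64.4 to 65.2). PSMA7 stood at 66.8 CPM in light alone at 3 h, replicate 2 (others 73.5 to 74.3), PSMD6 at 117 CPM in DMSO at 3 h, replicate 4 (others 110 to 111), and PSME3 at 168 CPM in light alone at 12 h, replicate 2 (others 176 to 177).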

How the results depend on the processing

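With the RUV factors as covariates, edgeR called 5, 4 and 4 members for T-REX against light alone, probe alone and DMSO at 3 h, 1 for light alone against DMSO, 2 for probe alone against DMSO and 13 for light alone against probe alone. At 6 h it called 5 for T-REX and 2 for DMSO, each set against light alone. At 12 h it called 3, 7 and 14 for T-REX against the controls in that order, 7 for light alone and 12 for probe alone against DMSO, and 5 between light alone and probe alone. With only the 2 arms compared in the fit, counts were 1 for light alone against probe alone at 3 h, and at 12 h 2, 3 and 3 for T-REX, 0 for probe alone against DMSO and 5 for light alone against probe alone. DESeq2 called 1 in each T-REX comparison and in light alone against probe alone at 3 h, and 1 for T-REX against probe alone at 12 h. For T-REX against DMSO at 12 h, RLE, no filter, the block and limma each gave 9 and DESeq2 10. The cause of these shifts was not tested. The shares of all genes called under these settings are not given, so the counts do not show whether members moved more than other genes.

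Replicate numbers showed no consistent pairing of the libraries. Correlations of same-numbered libraries were over 0.1 in 12, 10 and 8 of 24 pairs at 3, 6 and 12 h. They ran from -0.64 to 0.58, -0.54 to 0.47 and -0.35 to 0.23. Those of differently numbered libraries ran from -0.65 to 0.7, -0.39 to 0.47 and -0.38 to 0.39. How the libraries were made cannot be read from these values. With the replicate number as a block, counts moved to 3 for probe alone against DMSO at 12 h. Over time, the fit with the block compared the levels fitted for the reference replicate of each time point, not averages over the replicates. It called 0 with T-REX and with light alone at 6 h and 6 with probe alone. At 12 h it called 13 with light alone and with DMSO. These counts rest on another contrast than the main ones and do not show what the block alone changes.

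Leaving out 1 library at a time gave 0 to 1 for T-REX against DMSO at 3 h (1 without T-REX replicate 1 or 2), 0 to 1 for light alone against probe alone at 3 h (1 without T-REX replicate 3 or 4) and at 12 h (1 without DMSO replicate 3), 0 to 2 for T-REX against probe alone at 12 h (2 without probe alone replicate 4, 1 without DMSO replicate 3 or 4), 4 to 12 for T-REX against DMSO, 0 to 3 for light alone against DMSO (3 without DMSO replicate 4) and 1 to 11 for probe alone against DMSO. For 6 h against 3 h it gave 3 to 8 with T-REX (3 without 6 h replicate 4), 3 to 7 with light alone (3 without 6 h replicate 3, 4 without 3 h replicate 2 or 3) and 8 to 16 with probe alone (8 without 3 h replicate 1). For 12 h against 3 h the ranges were 23 to 28, 16 to 22, 24 to 31 and 16 to 25 in the arms T-REX, light, probe and DMSO. The shares of all genes called in these fits are not given, so the ranges do not show whether members moved more than other genes. Direction was compared only for the 9 members called for T-REX against DMSO at 12 h, and none of these changed direction. Medians near 0 did: for T-REX against DMSO, the members' median log2 change went from -0.009 to 0.021 at 3 h without T-REX replicate 4, and from -0.016 to 0.017 at 6 h without T-REX replicate 4, and at 6 h it also turned against light alone (-0.03 to 0.003, same library) and probe alone (-0.001 to 0.019, same library, 0.008 without T-REX replicate 1, 0.002 without probe alone replicate 4).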
